A study of Mus musculus with 10 samples.

Results

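Gene expression of the outer root sheath (ORS), the keratinocyte layer on the outside of the hair follicle, was set against that of the dermal papilla (DP), the cluster of mesenchymal cells enclosed by the follicle's base. The comparison used the 2 arrays titled for the ORS and the 2 titled for the DP, of 10 arrays in all, and covered every probe-set other than the array's own controls, 22626 in number. All cells were sorted from the dermis of backskin of mice at postnatal day 4, when follicles are growing, and every mouse carried both transgenes, K14-H2BGFP and Lef1-RFP. The K14 promoter drives a green nuclear histone fusion in keratinocytes, and a piece of the human Lef1 promoter drives the red reporter in the DP and in some other follicle cells. ORS cells were those with strong green and no red fluorescence. DP cells were those with strong red and no green fluorescence, taken after cells carrying CD117, CD45 or CD34, found on melanocytes, leukocytes and endothelial cells, had been depleted with magnetic beads. The epidermis and the uppermost parts of the follicles had been taken off with dispase beforehand, so the ORS cells do not stand for the whole length of the sheath. Several backskins were pooled for each preparation, so an array stands for pooled cells and not for a mouse. The methods call the replicates independent datasets, and the p-values below measure the spread between such pools.

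As background, the ORS is continuous with the basal layer of the epidermis, holds stem cells of the follicle in its bulge and upper part, and supplies cells to the proliferating matrix below. The DP does not proliferate appreciably in the mature follicle and sends and receives signals of the Wnt, BMP, FGF, Hedgehog and Notch families, through which it directs the matrix to grow and to form the hair shaft. Ligands made on one side of the basement membrane between them can act on receptors held on the other, on the same side, or on both.

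The deposited signals are on a linear scale and were compared as log2(signal + 50), so that a fold change of a gene with a low signal is understated. Differences are ORS minus DP, and a positive value is a higher signal in ORS. The median signal of an array lay at 67.8 and 70.5 in ORS and at 79.4 and 90.9 in DP. Between replicates Pearson's r across all probe-sets was 0.981 in ORS and 0.981 in DP, and between an ORS and a DP array it ran from 0.858 to 0.869. Replicate 1 of both populations was on chips of one manufacturing lot and replicate 2 on chips of another. Lists of genes of other cell types were read beside each result. Of 13 measured melanocyte genes all 13 were called higher in DP, as were 14.8% of all genes, and their summed signal was 690 and 1101 in ORS, against 31158 and 19083 in DP and a mean of 49223 in the sorted melanocytes (Mc) of the series, which were taken from red cells by their CD117. Hair shaft and inner root sheath genes summed to 5143 and 9350 in ORS, against 4819 and 5169 in DP and 34766 in the matrix cells (Mx). Leukocyte and red cell genes stayed under a signal of 200 on all 4 arrays for all 13 measured members, and so did 14 of 15 endothelial genes. Of all 12393 genes, 7119 did so. Called higher in DP were 2 of the 13 and 2 of the 15 (15.4% and 13.3%). Of pericyte and smooth muscle genes 6 of 12 were higher in DP, and of Schwann cell and glial genes 5 of 9.

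Promoter windows of 7 of the genes described below are shown first, because they stand at the ends of the comparison or hold a short motif that was searched for. Krt14 is shown since regulatory sequence of the K14 gene drove the reporter by which ORS cells were sorted. Krt5, Col17a1 and F11r were called higher in ORS, and Crabp1, Vim and Itga9 in DP. Each window runs from 250 bases before to 49 bases after the first base of the gene in RefSeq (build GRCm38.p6), 300 bases on the strand of the gene, and matches to a TATA box (TATAAA, coding strand), an AP-1 motif (TGANTCA, either strand) or an AP-2 motif (GCCNNNGGC, a palindrome) are in capitals.
Krt14, chr11:100205981-100206280, minus strand: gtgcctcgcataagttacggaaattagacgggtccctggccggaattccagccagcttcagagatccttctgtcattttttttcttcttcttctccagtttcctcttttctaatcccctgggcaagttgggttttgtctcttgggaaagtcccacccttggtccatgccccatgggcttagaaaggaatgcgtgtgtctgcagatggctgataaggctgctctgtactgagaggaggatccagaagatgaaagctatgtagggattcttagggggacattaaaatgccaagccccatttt
Krt5, chr15:101712856-101713155, minus strand: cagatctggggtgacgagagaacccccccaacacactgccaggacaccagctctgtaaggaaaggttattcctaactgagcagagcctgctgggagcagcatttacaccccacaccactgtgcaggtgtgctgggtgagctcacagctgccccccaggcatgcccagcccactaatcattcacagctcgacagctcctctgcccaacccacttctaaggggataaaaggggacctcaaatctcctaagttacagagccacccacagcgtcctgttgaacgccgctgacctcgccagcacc
Col17a1, chr19:47691993-47692292, minus strand: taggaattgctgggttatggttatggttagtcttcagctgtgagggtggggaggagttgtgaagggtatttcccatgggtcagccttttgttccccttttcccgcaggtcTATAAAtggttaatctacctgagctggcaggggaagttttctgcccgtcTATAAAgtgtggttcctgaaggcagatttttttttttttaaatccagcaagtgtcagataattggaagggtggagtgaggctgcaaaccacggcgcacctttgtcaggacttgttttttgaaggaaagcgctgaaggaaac
F11r, chr1:171437311-171437610, plus strand: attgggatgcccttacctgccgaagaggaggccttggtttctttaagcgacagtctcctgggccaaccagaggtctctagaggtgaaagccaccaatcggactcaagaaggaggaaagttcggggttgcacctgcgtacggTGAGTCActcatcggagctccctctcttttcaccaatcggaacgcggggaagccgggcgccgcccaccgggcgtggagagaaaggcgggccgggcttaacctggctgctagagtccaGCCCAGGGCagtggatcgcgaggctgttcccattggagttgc
Crabp1, chr9:54764498-54764797, plus strand: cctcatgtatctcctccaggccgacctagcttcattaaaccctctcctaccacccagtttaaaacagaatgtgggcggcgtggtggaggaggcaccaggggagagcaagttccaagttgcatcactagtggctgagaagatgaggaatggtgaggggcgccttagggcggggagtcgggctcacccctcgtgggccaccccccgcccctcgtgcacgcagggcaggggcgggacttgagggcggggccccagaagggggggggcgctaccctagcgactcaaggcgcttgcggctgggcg
Vim, chr2:13574061-13574360, plus strand: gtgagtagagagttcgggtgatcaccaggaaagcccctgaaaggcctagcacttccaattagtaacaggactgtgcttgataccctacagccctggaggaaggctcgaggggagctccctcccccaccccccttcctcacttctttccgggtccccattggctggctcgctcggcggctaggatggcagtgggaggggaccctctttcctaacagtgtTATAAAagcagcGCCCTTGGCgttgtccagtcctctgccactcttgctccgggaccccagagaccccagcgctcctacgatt
Itga9, chr9:118711442-118711741, plus strand: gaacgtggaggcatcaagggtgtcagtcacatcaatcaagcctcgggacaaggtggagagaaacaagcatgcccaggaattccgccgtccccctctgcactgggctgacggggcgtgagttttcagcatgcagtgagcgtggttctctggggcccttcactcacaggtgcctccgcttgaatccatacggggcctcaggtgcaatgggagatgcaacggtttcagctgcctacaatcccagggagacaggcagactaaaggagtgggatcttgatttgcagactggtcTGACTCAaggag
The Col17a1 window held the TATA letters 140 and 91 bases before the start, and the Vim window held them 32 bases before it. The F11r window held an AP-1 match 109 bases before the start, and the Itga9 window held one 38 bases after it. Over the 98 windows of genes called at least 4-fold higher in ORS, of 145 such genes, the AP-1 letters occurred in 12.2%, against 4.81% of the 187 windows of genes called at least 4-fold higher in DP, of 256, and 6.27% of all 9887 windows. The AP-2 letters occurred in 17.3% of these ORS windows, 30.5% of these DP windows and 23.3% of all windows, and the TATA letters in 5.1%, 8.56% and 6.88%. Their median GC content was 60% in the ORS set, 59.3% in the DP set and 59.3% in all. These shares are descriptions of letters in a short window, and no factor's binding was measured.

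Across the array the signals of the ORS and the DP parted widely. Of 22626 probe-sets, 2103 were called higher in ORS (9.29%) and 2924 were called higher in DP (12.9%) at an adjusted p under 0.05. Represented by the brightest probe-set of each gene, 1282 of 12393 genes were higher in ORS (10.3%) and 1836 were higher in DP (14.8%). In every one of these genes the ORS and the DP arrays did not overlap. With so few arrays a call nearly requires such a separation, so the separation adds no support to the calls. A difference of at least 8-fold was seen in 40 genes called higher in ORS and in 99 called higher in DP, and one of at least 16-fold in 8 and in 41 genes. A signal of 200 or more on both ORS arrays and under 200 on both DP arrays was held by 485 genes, and the converse by 660. A sorted population can read lower because fewer of its cells express a gene or because each holds less RNA, and array signals of bulk RNA cannot tell these apart.

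**Figure D1:**
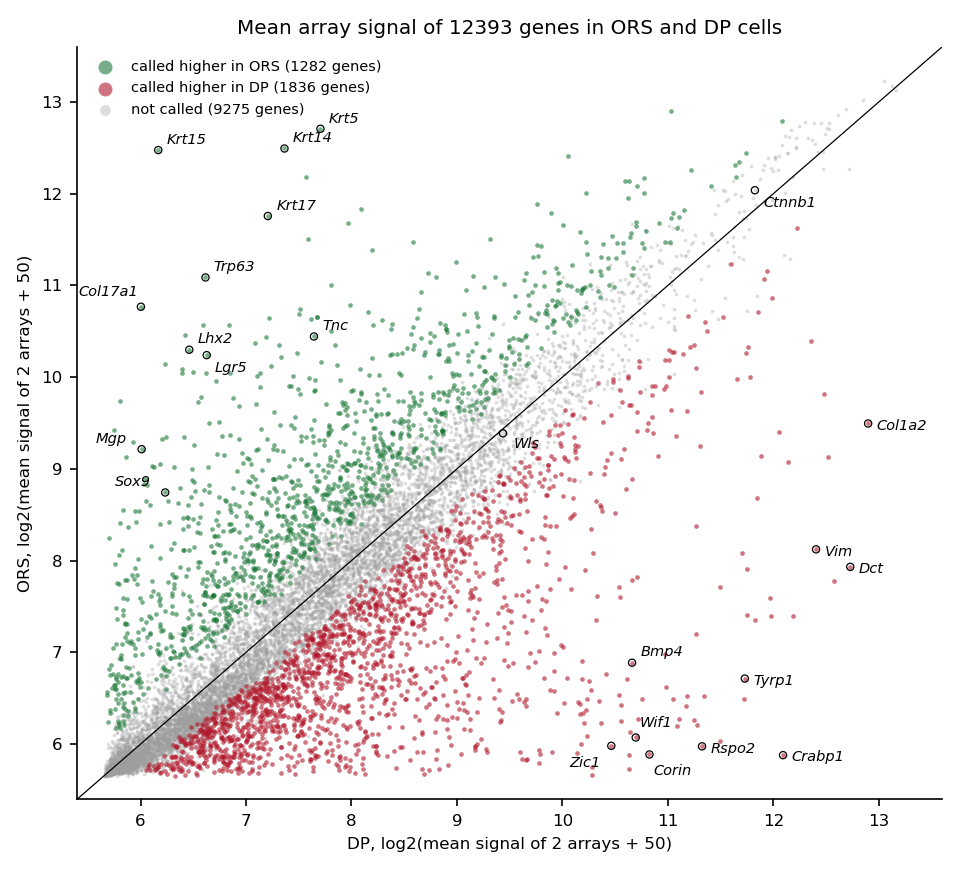
Mean signal of each of 12393 genes in ORS (vertical axis) and DP (horizontal axis), both as log2(mean of 2 arrays + 50), with genes called higher in ORS in green, genes called higher in DP in red and the rest in grey. The line marks equal signals. The 1282 green genes lie above it and the 1836 red genes below, with Krt15 at the upper left and Crabp1 at the lower right.

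The split of calls between the populations depended on how arrays were scaled. With each array rescaled to one median, 3165 probe-sets were higher in ORS and 1893 in DP, so that ORS held 62.6% of all calls, against 51.8% after quantile normalization and 41.8% in the signals as deposited. Leaving out a DP or ORS array also moved the counts, to 1243 higher in ORS without DP replicate 1, to 1342 higher in ORS and 1668 higher in DP without DP replicate 2, and to 1288 higher in ORS and 1672 higher in DP without ORS replicate 1. The median difference over all genes was -0.09, or 0.03 after median rescaling, and it moved with the level of the gene, at -0.13 in the 5494 genes with a mean log2 value under 7, -0.07 in the 5380 genes from 7 to 9, 0.13 in the 1359 from 9 to 11, and 0.35 in the 160 at 11 or above.

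Markers of the ORS and of the DP separated the 2 populations, while the DP arrays also carried the melanocyte genes described above. Krt15, a keratin of basal cells and of the bulge, read 5034 and 6261 in ORS, against 14.0 and 29.8 in DP, a 79.3-fold higher signal in ORS (log2 difference 6.31 ± 0.30 SE, adjusted p = 1.54e-05). Sox9, a transcription factor required for the ORS and its stem cells, read 336 and 421 in ORS, against 34.9 and 15.6 in DP (5.71-fold, adjusted p = 7.22e-05). Crabp1, a retinoic acid-binding protein, read 3.6 and 14.1 in ORS, against 4369.5 and 4266 in DP, where it was 74.5-fold higher (-6.22 ± 0.14, adjusted p = 9.17e-07). Zic1, a zinc finger transcription factor of dorsal mesenchyme and neural tissue, read 15.2 and 11.1 in ORS, against 1411 and 1314 in DP (22.4-fold higher in DP, adjusted p = 4.60e-06). The other ORS markers Krt5, Krt14, Itgb4, Itga6, Epcam, Cdh1, Trp63 and Lhx2 were all called higher in ORS, and of the other DP markers Alpl, Fgf7, Fgf10, Corin, Sox2, Sox18, Rspo2, Vim and Pdgfra were called higher in DP. Krt14 is no independent marker here, since the sort used a reporter of the K14 promoter. Lef1 itself, whose promoter fragment drove the red reporter, read 31.8 and 34.0 in ORS, against 101 and 103 in DP, and the difference of -0.87 did not pass (adjusted p = 0.0634).

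**Figure D2:**
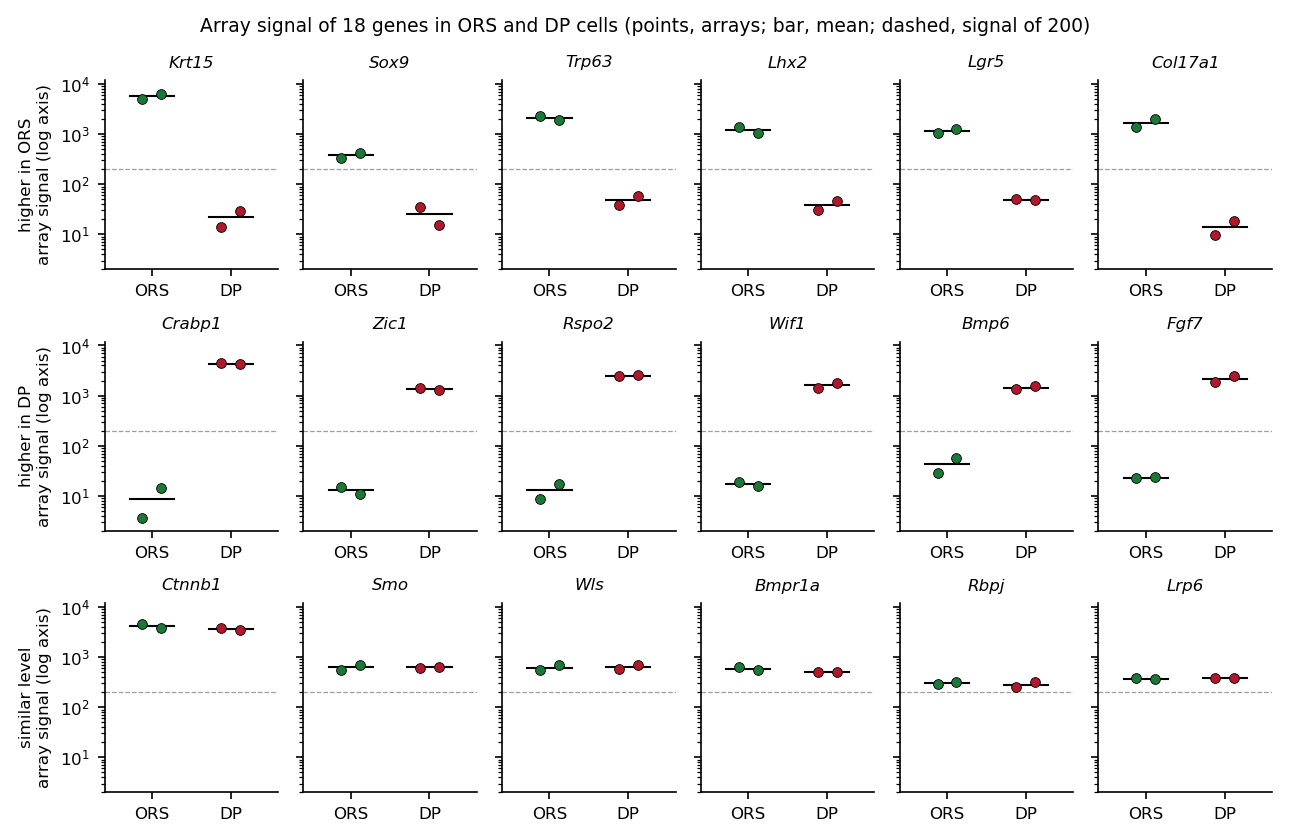
Signal on each array, on a log axis, of 18 genes with ORS on the left and DP on the right of each panel. Points are arrays, the bar is their mean and the dashed line is a signal of 200. The upper row holds genes higher in ORS, the middle row genes higher in DP and the lower row genes at a similar level, whose arrays all stood above 200.

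The genes with the largest differences toward ORS described a stratified epithelium anchored to its basement membrane. Among keratins of basal, simple and stratified epithelia, 12 of 14 measured genes were higher in ORS and none was higher in DP, against 10.3% and 14.8% of all genes, with a median difference of 1.30 against -0.09 over all genes. Krt14 read 4932 and 6499.8 in ORS, against 128 and 102 in DP, and its partner Krt5 read 5605 and 7679 in ORS, against 155 and 162 in DP (34.8-fold and 31.7-fold). Both filament genes of basal cells stood under 200 on the DP arrays, far from the ORS arrays. The sort on the K14 reporter favoured this direction for Krt14 beforehand. Krt17, a keratin of skin appendages, read 3336 and 3485 in ORS, against 83.8 and 112 in DP (23.5-fold, adjusted p = 4.71e-05).

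Genes of hemidesmosomes and of the epithelial basement membrane showed the same direction in 11 of 16 cases (68.8%, against 10.3% of all genes), with a median of 1.37. Hemidesmosomes fasten basal keratinocytes to that membrane. Col17a1, the collagen that spans the cell membrane there, read 1403 and 1985 in ORS, against 9.6 and 18.7 in DP (26.9-fold, adjusted p = 6.81e-05). Lamb3, a chain of laminin-332, read 498 and 709 in ORS, against 18.2 and 32.8 in DP, and Lama5 read 733 and 1062 in ORS, against 82.9 and 98.4 in DP. Both laminin chains stayed under 100 on the DP arrays and were several-fold higher on each ORS array. Itga3 and Npnt, the basement membrane ligand nephronectin, were 5.75-fold and 5.62-fold higher in ORS. Dst, which encodes the hemidesmosomal plakin BPAG1 and, from other promoters, isoforms of nerve and muscle, gave opposite answers by probe-set. Its brightest probe-set read 108 and 140.3 in ORS, against 582 and 490.5 in DP (-1.75, higher in DP), whereas 2 others differed by 4.47 and 3.70 toward ORS. Which isoforms each probe-set reads was not examined, and Mc averaged 1126 on the brightest.

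Genes of cell-cell junctions followed, with 16 of 22 higher in ORS and none higher in DP (72.7% and 0%, against 10.3% and 14.8% of all genes, median 1.62). Pkp1, a desmosomal plakophilin, read 1042 and 1672 in ORS, against 39.3 and 31.8 in DP (16-fold, adjusted p = 0.00143). F11r, the junctional adhesion molecule JAM-A, read 1024 and 986 in ORS, against 38.6 and 29.8 in DP (12.5-fold), and Epcam read 1112 and 909 in ORS, against 49.5 and 47.7 in DP (10.7-fold). Dsg2 and Perp, both of desmosomes, differed 9.51-fold and 9.13-fold. In Mx cells, the other epithelial population, 8 of these 16 genes averaged above both ORS arrays. None of the 11 hemidesmosome and basement membrane genes higher in ORS averaged above the ORS arrays in any other population.

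Transcription factors of follicle epithelium were higher in ORS in 23 of 35 cases (65.7%, against 10.3% of all genes), with a median of 1.31. Trp63, the p53 relative that specifies stratified epithelia, read 2326 and 1926 in ORS, against 38.2 and 57.9 in DP (22.2-fold). Lhx2, which maintains hair follicle stem cells, read 1386 and 1034 in ORS, against 30.1 and 46.2 in DP (14.2-fold), and Bnc1, basonuclin of basal keratinocytes, read 1022 and 1146 in ORS, against 24.2 and 26.0 in DP (15.1-fold). These 3 factors were above 1000 on both ORS arrays and under 60 on both DP arrays. Irx4 and Grhl2, a grainyhead factor of epithelial barriers, differed 9.61-fold and 9.38-fold. Rora was the exception, higher in DP by 2.36-fold, although its adjusted p of 0.0174 reached 0.1 without ORS replicate 1.

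The 15 genes with the largest differences toward ORS also held Fxyd3, a regulator of the sodium pump that read 4208 and 4976 in ORS, against 132 and 148 in DP (24.4-fold). Others among them were Cbr2, a carbonyl reductase (15-fold), Lgals7, the galectin of stratified epithelia (14.7-fold), Fgfbp1, a carrier of FGF ligands (15.7-fold), Cxcl14, a chemokine of epithelia (13.3-fold), and Esrp1, a splicing factor of epithelial cells (13.1-fold). Of suprabasal epidermal genes, 4 of 12 were higher in ORS (33.3%, against 10.3% of all genes). Krt1 read 1167 and 797 in ORS, against 87.6 and 88.3 in DP, and Krt10 read 1378 and 899 in ORS, against 105 and 117 in DP. Both keratins of differentiating epidermis exceeded 700 on each ORS array and averaged 66.3 and 212 in Mx. The part of residual epidermal cells in the GFP-high gate was not tested.

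Genes of the cell cycle separated the populations in one direction. Of 25 measured S phase and mitosis genes, 21 were higher in ORS and none was higher in DP (84% and 0%, against 10.3% and 14.8% of all genes). The median difference was 1.5. Mki67, the antigen of cycling nuclei, read 2082 and 1702 in ORS, against 375 and 334 in DP (4.78-fold, adjusted p = 6.96e-05). Cdc20, an activator of anaphase, read 1663 and 1193 in ORS, against 258 and 305 in DP (4.42-fold). Cdk1, the mitotic kinase, differed 3.69-fold with an adjusted p of 0.00773, which reached 0.0561 without ORS replicate 1. Rrm2, a subunit of ribonucleotide reductase, and Ccnb2, a mitotic cyclin, differed 3.57-fold and 3.41-fold. The summed signal of the list was 25621 and 20808 in ORS and 7348 and 6869 in DP, against 20545 in Mx and 12186 in the dermal fraction (DF), the cells negative for both reporters.

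On the DP side, transcription factors of mesenchyme and of the papilla were higher in DP in 22 of 33 cases (66.7%, against 14.8% of all genes). Their median was -1.46, and the list was chosen with earlier results of these data known. Sox18, an HMG-box factor known from vessels and from hair, read 27.7 and 27.1 in ORS, against 1469 and 1798 in DP (21.6-fold higher in DP). Prrx1, a homeobox factor of limb and skin mesenchyme, read 11.1 and 16.9 in ORS, against 1085 and 1131 in DP (18.1-fold), and Twist1, a bHLH factor of mesenchyme, read 5.9 and 13.0 in ORS, against 787 and 880.0 in DP (14.9-fold). The ORS arrays stood under 30 for each of these 3 factors. Zeb2 differed 14.3-fold and Sox2, a factor of neural progenitors and of some papillae, 8.06-fold, with 3.9 and 1.0 in ORS, against 325 and 426 in DP. None of the 22 genes averaged above the DP arrays in Mc or Mx, and 4 did so in DF. Msx1 was higher in ORS (1.64-fold, adjusted p = 0.0457), a call that was lost in 12 of 21 alternatives, with an adjusted p of up to 0.22 without ORS replicate 1.

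Extracellular matrix and cytoskeletal genes of mesenchyme were higher in DP in 26 of 37 cases (70.3%, against 14.8% of all genes) and had a median of -1.98. Nid1, the basement membrane linker nidogen, read 44.0 and 40.6 in ORS, against 2144 and 2412 in DP (25.2-fold higher in DP, adjusted p = 1.51e-05). Col6a3, a chain of collagen VI, read 118 and 109 in ORS, against 3557 and 3629 in DP (22.3-fold), and Vcan, the proteoglycan versican long used to mark the papilla, read 153 and 133 in ORS, against 3889 and 4012 in DP (20.7-fold). Vim, the filament of mesenchymal cells, read 246 and 212 in ORS, against 4959.5 and 5794 in DP (19.4-fold). All 4 genes were at least 10 times brighter on either DP array than on either ORS array. Of the 26 genes, 18 averaged above both DP arrays in DF, and none did so in Mc.

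Matrix genes also ran the other way, with 3 of the 37 higher in ORS (8.11%, against 10.3% of all genes). Mgp, an inhibitor of calcification, read 570.0 and 518 in ORS, against 3.7 and 25.2 in DP (9.34-fold, adjusted p = 1.04e-04). Tnc, the adhesion-modulating tenascin C, read 1142 and 1544 in ORS, against 116 and 184 in DP (6.99-fold, adjusted p = 0.00152). Fn1, fibronectin, read 1187 and 1601 in ORS, against 323 and 538 in DP (3.05-fold), with an adjusted p of 0.00982 that reached 0.0608 without DP replicate 1. Tnc and Mgp averaged 245 and 74.1 in DF, below both ORS arrays, whereas Fn1 averaged 3256 there, above them. Fbln1, fibulin-1, read 339 and 322 in ORS, against 339.5 and 341 in DP, a difference of -0.04 with a 95% interval of -0.33 to 0.25.

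The surface and secreted genes linked to the papilla were higher in DP in 24 of 31 cases (77.4%, against 14.8% of all genes), with a median of -2.36. This list, too, was chosen with earlier results of these data known, so its count is no independent support. Corin, a transmembrane protease, read 12.7 and 5.6 in ORS, against 1628 and 1902 in DP (30.7-fold higher in DP, adjusted p = 5.18e-06). Alpl, the alkaline phosphatase whose activity is the classical stain of the papilla, read 41.5 and 37.8 in ORS, against 1747 and 1614 in DP (19.3-fold), and Prss12, a secreted protease, read 124 and 113 in ORS, against 4318 and 3666 in DP (24-fold). Of the 24 genes, 2 averaged above both DP arrays in DF and 1 did so in Mc. None of the 3 named genes averaged above 100 in Mx, and Corin and Alpl stood at 10.2 and 27 in Mc. Sdc1, a heparan sulfate proteoglycan of epithelia and condensing mesenchyme, was higher in ORS (2.48-fold, adjusted p = 0.00174), and so was the fatty acid receptor Cd36 at low signals (30.2 and 86.7 in ORS, against 7.1 and 3.5 in DP). The call of Cd36 was lost in 3 of 20 alternatives, with an adjusted p of up to 0.104 without DP replicate 2.

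Leading genes toward DP that stood in no list were Islr, a secreted repeat protein of mesenchyme, with 18.2 and 12.8 in ORS, against 2956 and 2698 in DP (43.9-fold), Pcolce, an enhancer of collagen processing (37.7-fold), Lama2, a laminin chain of muscle and mesenchyme (31.8-fold), Cdh11, the cadherin of mesenchyme (33.4-fold), and Meg3, a noncoding RNA of an imprinted locus (27.7-fold). The 15 largest differences also held 3 melanocyte genes. Tyrp1, an enzyme of pigment synthesis, read 26.4 and 83.5 in ORS, against 4192 and 2503 in DP and 4430 on average in Mc, and Pmel, the fibril protein of melanosomes, read 86.7 and 253 in ORS, against 7438 and 4706 in DP and 7134 in Mc. Dct, a further pigment enzyme, read 153 and 236 in ORS, against 8070.2 and 5419.6 in DP and 6866 in Mc. On DP replicate 1 all 3 pigment genes read close to or above the mean of sorted melanocytes, and on DP replicate 2 below it. Apod and Npy, 2 others of the 15, averaged 2612 and 6669 in Mc, above both of their DP arrays (2066 and 2233 for Apod and 2732 and 2364 for Npy). Over all 1836 genes higher in DP, 329 averaged higher in Mc than on either DP array (17.9%) and 456 did so in DF (24.8%), and over the 1282 genes higher in ORS, 359 did so in Mx (28%). The part of melanocyte RNA in the DP values was not tested.

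Signalling genes were set out in 22 lists with 403 members, of which 363 were measured. These lists were also chosen with earlier results of these data known. Of these, 50 were higher in ORS and 104 were higher in DP (13.8% and 28.7%, against 10.3% and 14.8% of all genes), with a median difference of -0.23, and the other 209 were not called. After median rescaling the counts were 70 and 92, and after quantile normalization 56 and 100. Of the 104, 15 averaged higher in Mc than on both DP arrays and 20 higher in DF, and of the 50, 9 averaged higher in Mx than on both ORS arrays.

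**Figure D3:**
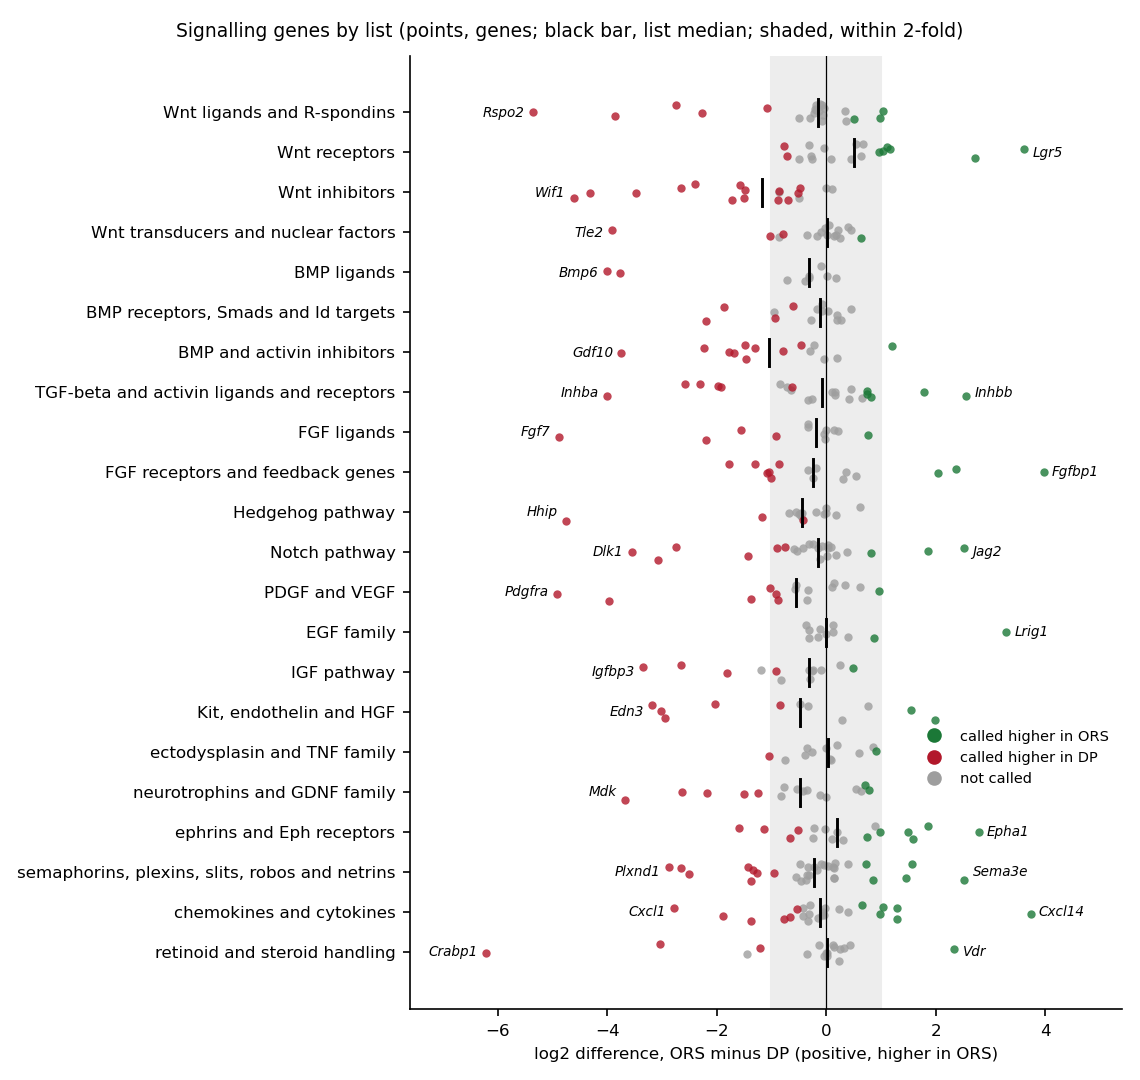
Log2 difference, ORS minus DP, of every measured gene in 22 signalling lists, one row for each list, with genes called higher in ORS in green, higher in DP in red and not called in grey. Black bars mark list medians and the shaded band marks differences within 2-fold. The rows of Wnt inhibitors and of BMP and activin inhibitors have their medians at -1.18 and -1.04, left of the other lists, while Wnt receptors have theirs at 0.51.

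In the Wnt pathway, R-spondins and inhibitors were higher in DP, and several receptors were higher in ORS. Wnt ligands bind Frizzled receptors with Lrp co-receptors, and R-spondins bind Lgr receptors and prolong the response. Rspo2 read 8.6 and 17.2 in ORS, against 2421 and 2609 in DP (40.8-fold higher in DP, adjusted p = 8.71e-07), and Rspo1 read 14.1 and 47.0 in ORS, against 984 and 1212 in DP (14.5-fold). Lgr5, an R-spondin receptor and a marker of cycling follicle stem cells, read 1039.8 and 1279 in ORS, against 50.3 and 47.4 in DP (12.2-fold higher in ORS, adjusted p = 1.54e-05). The 2 R-spondins and their receptor were thus called on opposite sides, and Lgr5 averaged 76.5 in Mx. Ndp, norrin, which binds a Frizzled, was 6.74-fold higher in DP.

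Of 22 Wnt ligands, R-spondins and secretion factors, 3 were higher in ORS and 5 were higher in DP (22.7% higher in DP, against 10.3% of all genes higher in ORS and 14.8% higher in DP), and 13 stayed under 200 on all 4 arrays. Wnt5a, the chief noncanonical ligand of mesenchyme, read 188 and 94.6 in ORS, against 806 and 888 in DP (4.83-fold higher in DP), and Wnt11 differed 2.13-fold in the same direction. Wnt10a read 165 and 259.7 in ORS, against 70.3 and 80.7 in DP, Wnt4 read 409 and 336 in ORS, against 186 and 142 in DP, and Wnt6 read 164 and 186 in ORS, against 102 and 116 in DP. These 3 ligands were modestly higher in ORS (2.06-, 1.98- and 1.41-fold), and each call was lost in some alternatives, with adjusted p up to 0.0627 without DP replicate 1, 0.144 without DP replicate 2 and 0.116 without ORS replicate 2. Wnt4 averaged 640 in Mc and 540 in Mx, both above the ORS.

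Of Wnt receptors, 6 of 18 were higher in ORS and 2 were higher in DP (33.3% and 11.1%, against 10.3% and 14.8% of all genes). Fzd6 read 609 and 944 in ORS, against 75.7 and 69.4 in DP (6.61-fold, adjusted p = 5.60e-04), Fzd4 differed 2.23-fold, and Fzd7 2.15-fold with an adjusted p of 0.00881 that reached 0.0554 without ORS replicate 2. Rnf43, a ubiquitin ligase that removes Frizzleds from the surface, differed 2.05-fold toward ORS. Fzd9 and Fzd3 were higher in DP at low signals, where Fzd9 read 55.0 and 46.8 and Fzd3 read 146 and 126, with Fzd3 at 155 in Mc.

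Inhibitors of Wnt signalling formed the signalling list with the largest share of genes called in one direction, with none of 18 genes higher in ORS and 14 higher in DP (77.8%, against 14.8% of all genes). Wif1, which binds Wnt ligands outside the cell, read 19.0 and 15.5 in ORS, against 1416 and 1802 in DP (24.5-fold higher in DP, adjusted p = 8.09e-05). Sfrp2, a secreted Frizzled-related protein, read 25.1 and 27.4 in ORS, against 1466 and 1454 in DP (19.8-fold), and Notum, which strips the lipid from Wnt ligands, read 56.0 and 53.5 in ORS, against 1187 and 1041 in DP (11.1-fold). Frzb and Nkd2 differed 6.33-fold and 5.29-fold. The first 3 stood under 60 on both ORS arrays and above 1000 on both DP arrays. Of the 14, 2 averaged higher in Mc than on both DP arrays. The count was 12 of 18 after median rescaling and after quantile normalization. At its brightest probe-set Sfrp1 was not called, with 808 and 1206 in ORS, against 1197 and 1675 in DP (adjusted p = 0.391), although 1 of its 3 others was called higher in DP (1.57-fold, adjusted p = 0.0371). Dkk3 read 227 and 292 in ORS, against 239.7 and 231 in DP, with an interval of -0.31 to 0.54 and 986 on average in Mc. Inside the cell, the corepressor Tle2 read 41.6 and 68.3 in ORS, against 1537 and 1504 in DP (15.1-fold higher in DP, adjusted p = 6.84e-06).

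Bmp4, Bmp6 and most BMP antagonists were higher in DP. BMPs signal through type I and type II kinases and Smad proteins, and restrain follicle stem cells while they instruct hair differentiation. Bmp6 read 28.6 and 57.0 in ORS, against 1331 and 1539 in DP (16.2-fold higher in DP, adjusted p = 5.26e-06), and Bmp4 read 67.8 and 68.9 in ORS, against 1498 and 1640.1 in DP (13.7-fold, adjusted p = 4.59e-06). The other 7 measured genes of the list of BMP ligands, in which Bmp1 was counted, were not called. Among inhibitors of BMP and activin, 1 of 14 was higher in ORS and 9 were higher in DP (7.14% and 64.3%, against 10.3% and 14.8% of all genes). Gdf10, a TGF-beta family member listed with them, read 20.7 and 96.2 in ORS, against 1450.4 and 1185 in DP (13.4-fold), and Bambi, a receptor decoy, read 134 and 103 in ORS, against 692 and 803 in DP (4.74-fold). Nog, the antagonist noggin, read 13.7 and 10.8 in ORS, against 136 and 167 in DP (3.23-fold), under 200 throughout. Fstl1 differed 3.43-fold and Sostdc1, which acts on BMP and Wnt signals, read 1037 and 1329.6 in ORS, against 3259 and 3495 in DP (2.8-fold), bright on all 4 arrays. Crim1, a tether of BMPs, was higher in ORS (2.29-fold, adjusted p = 0.0124), and its adjusted p reached 0.0823 without ORS replicate 1.

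Receptors and transducers of BMP signals differed less. Smad6, an inhibitory Smad that BMPs induce, read 158 and 154 in ORS, against 853 and 933 in DP (4.57-fold higher in DP, adjusted p = 4.24e-04), and averaged 761 in Mc. Id2, a BMP target, differed 3.66-fold toward DP with an adjusted p of 0.0119 that reached 0.0709 without ORS replicate 2, and averaged 1545 in Mc, above both DP arrays. Id1 and Id3 did not pass, at differences of -0.27 and -0.96. The receptor Bmpr1a read 624 and 546 in ORS, against 511 and 495 in DP, within 2-fold at its 95% interval of -0.13 to 0.53, although 1 of its 4 other probe-sets was called higher in ORS.

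TGF-beta and activin genes were divided, with 5 of 22 higher in ORS and 6 higher in DP (22.7% and 27.3%, against 10.3% and 14.8% of all genes). Inhba, the subunit of activin A, read 9.4 and 40.9 in ORS, against 1158 and 1108 in DP (16.1-fold higher in DP, adjusted p = 1.54e-05), while Inhbb, the subunit of activin B, read 462 and 751 in ORS, against 59.8 and 59.2 in DP (5.85-fold higher in ORS, adjusted p = 3.39e-04). The 2 activin subunits were thus divided between the populations. The receptors Tgfbr1 and Tgfbr2 were higher in DP, at 3.93-fold and 3.8-fold, with 311 and 241 in ORS, against 1133 and 1233 in DP for Tgfbr2. Acvr1b, an activin receptor, read 697 and 890.5 in ORS, against 177 and 212 in DP (3.44-fold higher in ORS, adjusted p = 0.00817, up to 0.0512 without DP replicate 1). The ligands Tgfb2 and Tgfb3 were 1.67-fold and 1.75-fold higher in ORS, with adjusted p of 0.0181 and 0.0143 that reached 0.112 and 0.26 with a pseudocount of 1. Ltbp1, which stores latent TGF-beta in the matrix, differed 5.96-fold toward DP.

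FGF ligands of the measured 12 were mostly dim, with 10 under 200 on all 4 arrays. Fgf7, keratinocyte growth factor, was the clear exception at 22.4 and 23.9 in ORS, against 1826 and 2414 in DP (29.4-fold higher in DP, adjusted p = 3.87e-06). Fgf10, its relative, read 4.1 and 3.4 in ORS, against 143 and 265 in DP (4.59-fold, adjusted p = 3.34e-04). Their common receptor gene Fgfr2 was present on both sides, at 759 and 934 in ORS, against 1706 and 1885 in DP, a 2.07-fold higher signal in DP with an adjusted p of 0.0144 that reached 0.092 without ORS replicate 1. Which splice form of Fgfr2, the epithelial or the mesenchymal, the probe-set reads was not examined. Fgfr1 differed 3.43-fold toward DP. Feedback genes of the pathway were divided, as Dusp6, a phosphatase of ERK, read 1587 and 1348 in ORS, against 238 and 249.9 in DP (5.15-fold higher in ORS, adjusted p = 8.89e-05) and Etv4, an Ets factor, 229.5 and 189.7 in ORS, against 13.4 and 12.7 in DP (4.11-fold higher in ORS), while the sprouty genes Spry1 and Spry2 were 2.13-fold and 2-fold higher in DP.

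Hedgehog genes gave 3 of 15 higher in DP (20%, against 14.8% of all genes) and none higher in ORS, or 2 higher in DP after median rescaling. Shh itself, which matrix cells are known to make, stayed under 10 on all 4 arrays. Hhip, a target that binds and sequesters the ligand, read 8.3 and 9.4 in ORS, against 1423 and 1643 in DP (26.8-fold higher in DP, adjusted p = 9.17e-07). Ptch1, receptor and target, read 1979 and 1262 in ORS, against 3601 and 3690.3 in DP (2.26-fold, adjusted p = 0.00597). Both targets were thus higher in DP, yet Ptch1 was bright on the ORS arrays too, where Hhip was near 0. Gli1 and Gli2, the transcription factors, did not pass (adjusted p = 0.107 and 0.187), although another probe-set of Gli2 was called higher in DP (1.49-fold, adjusted p = 0.0486), and Gli1 read 296 and 323 in ORS, against 523 and 380.3 in DP. Gli3 was called higher in DP by 1.34-fold at an adjusted p of 0.0278, a call lost in 8 of 19 alternatives with an adjusted p of up to 0.165 after quantile normalization.

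In the Notch pathway, 3 of 23 genes were higher in ORS and 6 were higher in DP (13% and 26.1%, against 10.3% and 14.8% of all genes), or 5 and 5 after median rescaling. Jag2, a ligand, read 488 and 739.9 in ORS, against 51.9 and 78.4 in DP (5.7-fold, adjusted p = 7.20e-04), and the receptor Notch1 read 947 and 1038 in ORS, against 232 and 244 in DP (3.62-fold, adjusted p = 1.18e-04), with 2155 on average in Mx. On the other side, the target gene Hey2 read 2.5 and 3.9 in ORS, against 312 and 499 in DP (8.38-fold higher in DP), and its relative Hey1 was 6.72-fold higher in DP. Dlk1, a ligand-like membrane protein, read 54.1 and 52.6 in ORS, against 1014 and 1323 in DP (11.7-fold). The Hey targets were thus higher in the population that held less Jag2 and Notch1, while Hes1, another target, was at a similar level with an interval of -0.48 to 0.54. Notch3 was 2.69-fold higher in DP with an adjusted p of 0.0426 that rose to 0.204 without DP replicate 2, and it averaged 2972 in DF, where pericyte genes were bright.

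Both receptors of PDGF were far higher in DP. Pdgfra read 3.2 and 2.8 in ORS, against 1450.5 and 1633 in DP (30-fold higher in DP, adjusted p = 1.32e-06), and Pdgfrb read 11.8 and 8.6 in ORS, against 759.7 and 1049.6 in DP (15.7-fold), with 1675 in DF. The ligand Pdgfa read 308 and 390.2 in ORS, against 186 and 238 in DP, with no overlap of arrays, and it did not pass (adjusted p = 0.131), although its other, dimmer probe-set was called higher in ORS (2.08-fold, adjusted p = 0.0233). Pdgfb was called higher in ORS (1.94-fold, adjusted p = 0.0257, up to 0.222 with a pseudocount of 1). Of the VEGF genes, Nrp1, a co-receptor, and Vegfa were 2.58-fold and 2.03-fold higher in DP, with Nrp1 at 501 in Mc. In the EGF family the receptor inhibitor Lrig1, a marker of stem cells in the upper follicle, read 1243 and 1310.2 in ORS, against 88.8 and 82.7 in DP (9.77-fold higher in ORS, adjusted p = 5.78e-05), whereas Erbb2 stood at a similar level, as did Egfr and Erbb3 at their brightest probe-sets alone. In the IGF pathway, Igfbp3 and Igfbp5, binding proteins, were 10.1-fold and 6.27-fold higher in DP, and Igf1 read 15.2 and 35.7 in ORS, against 174 and 257 in DP (3.51-fold), while the receptor gene Igf1r differed by -0.32 and did not pass.

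Genes by which follicle cells address pigment cells were split. Edn3, endothelin 3, read 10.3 and 22.3 in ORS, against 491 and 609.9 in DP (9.05-fold higher in DP, adjusted p = 1.29e-05), with 14.1 in Mc. Edn2 read 219.8 and 387 in ORS, against 27.3 and 48.1 in DP, and Edn2 and Edn1 were 3.94-fold and 2.93-fold higher in ORS. The 3 endothelin genes were thus divided between both sides. Kitl, the ligand of Kit, read 265 and 166 in ORS, against 83.1 and 129 in DP and did not pass (adjusted p = 0.0983). The receptors Ednrb and Kit, which melanocytes carry, were 7.7-fold and 4.09-fold higher in DP, but averaged 2193 and 2820 in Mc, above both of their DP arrays. Kit encodes CD117, the surface protein by which cells were depleted before the DP sort. Pth1r, the receptor of parathyroid hormone-related protein, read 0.8 and 0.9 in ORS, against 356 and 366 in DP (8.09-fold), with 7.9 in Mc. Eda, the ligand ectodysplasin, was 2.07-fold higher in DP and its receptor Edar 1.86-fold higher in ORS, at 67.7 and 45.7 in ORS, against 6.7 and 7.3 in DP.

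Growth factors of nerve cells and their receptors held 2 of 16 genes higher in ORS and 5 higher in DP (12.5% and 31.2%, against 10.3% and 14.8% of all genes). Mdk, midkine, read 47.1 and 45.0 in ORS, against 1073 and 1298 in DP (12.8-fold higher in DP, adjusted p = 4.66e-06). Gfra1, a co-receptor of GDNF, was 6.23-fold and Ngfr, the low-affinity neurotrophin receptor, 2.85-fold higher in DP, with an adjusted p for Ngfr of up to 0.0638 without DP replicate 2. Il6st, the shared receptor chain of the interleukin 6 family, differed 4.54-fold toward DP and averaged 1900 in DF.

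Guidance genes were spread over both populations. Ephrins and Eph receptors were higher in ORS in 6 of 17 cases and in DP in 4 (35.3% and 23.5%, against 10.3% and 14.8% of all genes). Epha1 read 359 and 449.7 in ORS, against 5.8 and 27.9 in DP (6.86-fold higher in ORS, adjusted p = 0.00404), Efnb2 read 546 and 529.5 in ORS, against 106 and 120.4 in DP (3.6-fold), and Efnb3 was 3.03-fold higher in DP. Among semaphorins, plexins, slits, robos and netrins, 5 of 31 were higher in ORS and 8 were higher in DP (16.1% and 25.8%, against 10.3% and 14.8% of all genes). Sema3e read 349.8 and 331 in ORS, against 17.1 and 19.2 in DP (5.73-fold higher in ORS, adjusted p = 1.12e-05), and its receptor Plxnd1 read 10.1 and 12.3 in ORS, against 401 and 400.1 in DP (7.36-fold higher in DP). Ligand and receptor here were held apart, although Plxnd1 averaged 471 in Mc and 367 in DF. Slit2 was 6.27-fold and Plxnc1 5.64-fold higher in DP, with Plxnc1 at 1043 in Mc. In this list 5 of the 8 genes higher in DP were brighter still in Mc.

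Chemokine and cytokine genes gave 6 of 24 higher in each population (25%, against 10.3% of all genes higher in ORS and 14.8% higher in DP). Cxcl14 read 1351 and 1587 in ORS, against 76.4 and 52.5 in DP (13.3-fold higher in ORS), and Cxcl12 read 363 and 710.1 in ORS, against 144 and 220.4 in DP (2.45-fold, adjusted p = 0.0146, up to 0.0882 without DP replicate 1). Cxcr4, the receptor of Cxcl12, read 118 and 87.3 in ORS, against 555 and 475 in DP (3.71-fold higher in DP, adjusted p = 1.27e-04), while Ackr3, its scavenging receptor, was 1.97-fold higher in ORS. Cxcl1 was 6.85-fold higher in DP, at 212 and 79.6 in ORS, against 998 and 1470.3 in DP, and averaged 2200 in DF. Among genes that handle retinoids and steroids, Crabp2 joined Crabp1 on the DP side (8.21-fold), and Vdr, the vitamin D receptor needed for hair cycling, read 1324 and 1728 in ORS, against 218 and 309 in DP (5.05-fold higher in ORS, adjusted p = 2.84e-04).

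To ask how ligands and receptors were divided, 52 known pairs were listed and 45 had both members measured. The pairs were chosen with earlier results of these data known. Of the 42 ligands measured, 33.3% were higher in ORS and 31% higher in DP, against 10.3% and 14.8% of all genes. For the 46 receptors measured these shares were 21.7% and 43.5%. In 9 pairs the ligand and the receptor were called in opposite populations, in 7 they were called in the same one, and in 29 at least 1 of them was not called. In 4 of the 9 the ligand was higher in DP and the receptor higher in ORS, namely Rspo2 with Lgr5, Inhba with Acvr1b, Inhba with Acvr2a, and Eda with Edar. The other 5 had the ligand higher in ORS and the receptor higher in DP, and were Tgfb2 with Tgfbr2, Sema3e with Plxnd1, Cxcl12 with Cxcr4, and the matrix ligands Npnt with Itga8 and Tnc with Itga9. Itga9 read 22.6 and 53.9 in ORS, against 804 and 684 in DP (9.12-fold higher in DP), and Itga8, a nephronectin receptor, read 13.1 and 10.4 in ORS, against 52.7 and 90.3 in DP (1.94-fold, adjusted p = 0.00368). In a further 12 pairs only the receptor was called, higher in DP. They included Kitl with Kit, and Pdgfa with Pdgfra at the brightest probe-set of Pdgfa. Kit, the gene of CD117, averaged higher in Mc than on both DP arrays. RNA levels do not show that a protein was made or bound.

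**Figure D4:**
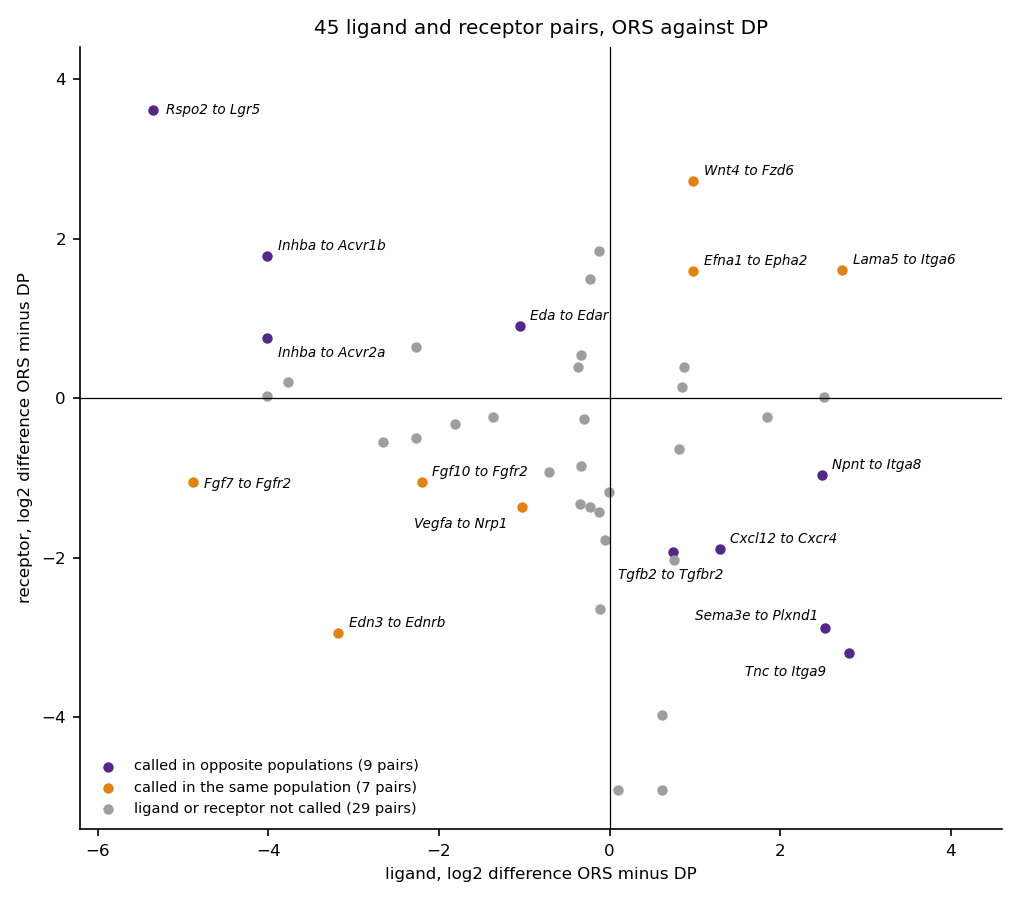
Log2 difference, ORS minus DP, of the ligand (horizontal axis) and of the receptor (vertical axis) in 45 pairs. Purple marks 9 pairs called in opposite populations, orange 7 pairs called in the same population and grey 29 pairs with a member not called. Rspo2 with Lgr5 stands farthest to the upper left, at -5.35 and 3.61.

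Of 28 measured pairs of relatives, some were called in opposite populations, others both higher in DP, and the rest had a member not called. Among those in opposite populations, the cadherins Cdh1 and Cdh11 differed by 2.58 and -5.06, and Cdh3 and Cdh2 by 1.92 and -2.47. The laminin chains Lama5 and Lama2 differed by 2.73 and -4.99, and the Sox factors Sox9 and Sox18 by 2.51 and -4.44. In each of these families the first-named relative was higher in ORS and the other higher in DP. The filaments Krt14 and Vim stood at 5.12 and -4.28, and the Wnt ligands Wnt4 and Wnt5a at 0.98 and -2.27. The call of Wnt4 was lost in 5 of 21 alternatives. Other relatives moved together, as Bmp4 with Bmp6, Twist1 with Twist2, Crabp1 with Crabp2, and Igfbp3 with Igfbp5, all of them higher in DP.

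A similar level was called where a gene read 200 or more on all 4 arrays and its 95% interval lay wholly within 2-fold. Over the array, 2080 of the 2977 genes at that signal met this (69.9%). Of the 81 signalling genes at that signal, 44 did so. Under a limit of 1.5-fold the 44 fell to 18.

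For the Wnt pathway, the genes at a similar level ran from the membrane to the nucleus. Ctnnb1, beta-catenin, read 4471 and 3840.1 in ORS, against 3728 and 3430.1 in DP, a difference of 0.21 (95% interval -0.03 to 0.45) beside a median of 0.35 over the genes with a mean log2 value of 11 or above. Lrp6, the co-receptor, read 384 and 362 in ORS, against 384 and 388 in DP (interval -0.45 to 0.36), and Wls, which escorts Wnt ligands out of the cell, read 551 and 689 in ORS, against 582 and 703 in DP (interval -0.42 to 0.32). Csnk1a1 and Apc, of the complex that destroys beta-catenin, had intervals of -0.27 to 0.37 and -0.46 to 0.39, and Dvl1, Axin1 and Pygo2 were within 2-fold as well. In all, 7 of the 8 Wnt transducers with a signal of 200 on all 4 arrays were at a similar level. The 7 include Tcf7l1, a Tcf factor of the ORS and bulge, which read 570.4 and 530.1 in ORS, against 314 and 359.6 in DP and was both within 2-fold (interval 0.28 to 1.00) and called higher in ORS (adjusted p = 0.0228, up to 0.14 with a pseudocount of 1). Its other probe-set differed 2.45-fold toward ORS (adjusted p = 0.00158), so that the similar level of Tcf7l1 rests on 1 of 2 probe-sets.

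Some genes of other pathways were also at a similar level. Of genes at a signal of 200 on all 4 arrays, these were 3 of 6 Hedgehog and 6 of 9 Notch genes. They were 3 of 7 BMP receptors, Smads and Id targets, and 1 of 5 TGF-beta and activin genes. Of FGF receptors and feedback genes they were 2 of 8, against 69.9% of all genes at that signal. In Hedgehog signalling the transducer Smo read 566 and 686 in ORS, against 608 and 638 in DP, a difference of 0.00 (interval -0.48 to 0.48). The co-receptor Boc and Gli1 were within 2-fold, although the interval of Gli1, -0.88 to -0.05, lay wholly toward DP. In BMP and TGF-beta signalling the genes at a similar level were Bmpr1a, Smad1, Smad2 and Smad4. Smad4, the common Smad, read 701 and 794 in ORS, against 836 and 842 in DP (interval -0.61 to 0.29), and Smad2 301 and 242 in ORS, against 234 and 260.2 in DP (interval -0.18 to 0.39). In Notch signalling the nuclear partner Rbpj read 288 and 314 in ORS, against 255 and 312 in DP (interval -0.28 to 0.44). Rfng, a glycosyltransferase that modifies Notch, had the interval that stayed closest to 0 among the 44, -0.24 to 0.30, with 297 and 287 in ORS, against 296 and 274 in DP. The ligands Jag1 and Dll1 were also within 2-fold.

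Of the growth factor receptors, Erbb2 read 227 and 259.5 in ORS, against 218 and 218 in DP (interval -0.27 to 0.52), and Erbb3 501 and 547 in ORS, against 397 and 569 in DP (interval -0.41 to 0.66), with 904 in Mc. A dim second probe-set of Erbb3 was called higher in DP (1.52-fold, adjusted p = 0.00605). Egfr was within 2-fold at its brightest probe-set (-0.08 to 0.86), yet 3 of its 4 other probe-sets were called higher in ORS, by up to 6.92-fold. Tnfrsf1a, a receptor of tumour necrosis factor, and Nr3c1, the glucocorticoid receptor, had intervals of -0.28 to 0.44 and -0.35 to 0.40. Efnb1, Plxnb2 and Nrp2, which guide cells, had intervals of -0.61 to 0.15, -0.62 to 0.44 and -0.52 to 0.79. A similar level here bounds the difference under 2-fold and does not show equality.

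**Figure D5:**
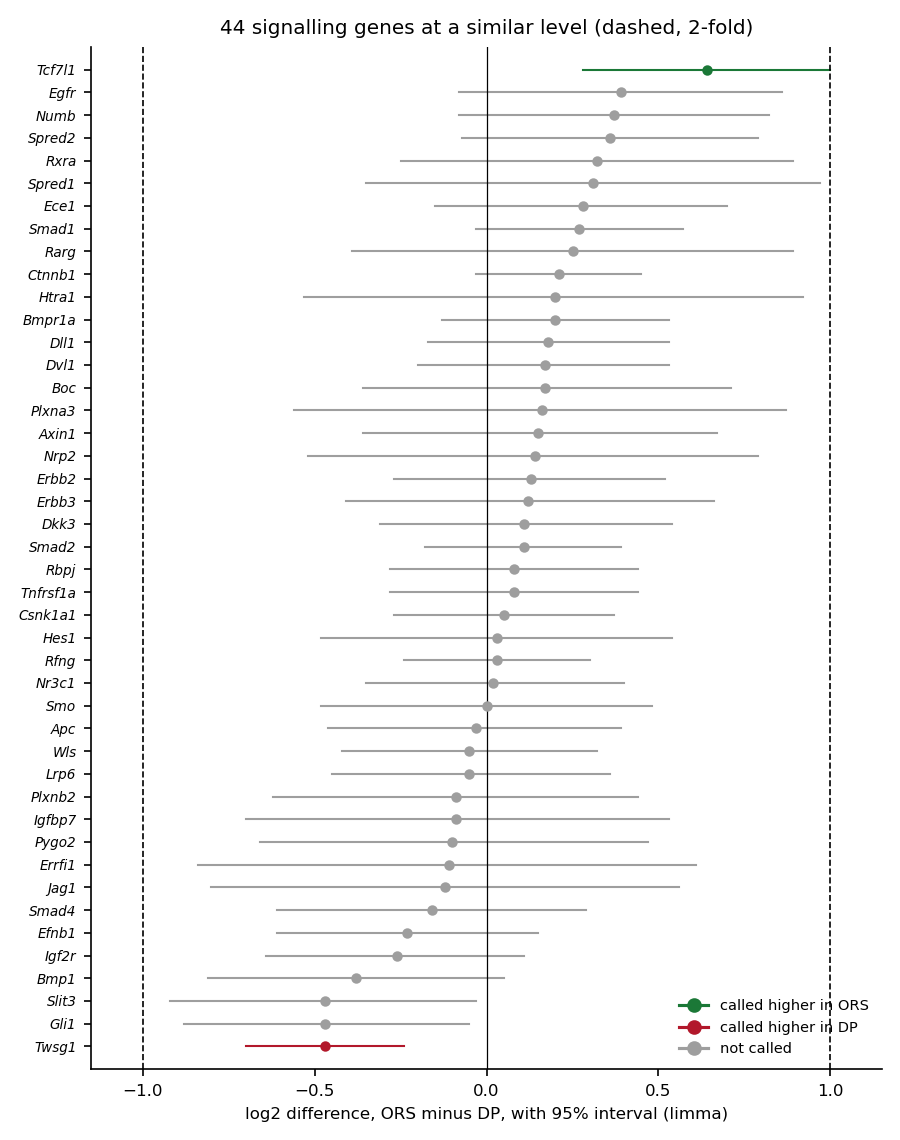
Log2 difference, ORS minus DP, of 44 signalling genes at a similar level (points) with 95% intervals from limma (lines), ordered by the difference. Dashed lines mark 2-fold. Tcf7l1 at the top and Twsg1 at the bottom were also called higher in ORS and in DP, at differences of 0.64 and -0.47, and the call of Twsg1 was lost in 6 of 21 alternatives, with an adjusted p of up to 0.325 after median rescaling. The other 42 were not called.

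Immediate early genes, which respond within minutes to handling of cells, were read as a sign of cell state. Of 21, 6 were higher in ORS and 3 were higher in DP (28.6% and 14.3%, against 10.3% and 14.8% of all genes). Egr1 read 5404 and 5762 in ORS, against 5153 and 5724 in DP, and Jun read 3898 and 3194 in ORS, against 3336 and 3325 in DP, both within 2-fold (-0.32 to 0.40 and -0.25 to 0.42). Atf3 read 1555 and 1576 in ORS, against 139 and 170.1 in DP (7.92-fold higher in ORS, adjusted p = 5.56e-04), and Nr4a1 and Egr2 were 2.15-fold and 3.82-fold higher in ORS. Klf2 and Junb were 3.3-fold and 1.97-fold higher in DP. The part of dissociation and sorting in these values was not tested.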

How the data were processed

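RNA of 5 sorted populations was hybridised to 10 Affymetrix MOE430A arrays, 2 for each population, after 1 round of amplification. Per the labels and the study's methods, the authors read each array with the MAS 5.0 algorithm and deposited its probe-set signals, which are intensity values on a linear scale that had been scaled array by array. The authors' own comparisons rested on another summary of the probes, which was not used here.

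From the deposited signals, 64 control probe-sets of 22690 were left out, and limma (version 3.58.1, R 4.3.3) was fitted to log2(signal + 50) of the other 22626 over all 10 arrays, with 1 mean for each population, 5 residual and 2.56 prior degrees of freedom, a two-sided moderated test of ORS minus DP and Benjamini-Hochberg adjustment over all probe-sets. A call is an adjusted p under 0.05. The precision rests on 2 arrays a population, and an exact permutation test of 2 against 2 arrays could not go below 0.333. An array's signals carry no read depth. The fit was tested on simulated data.

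The array annotation gave 20380 probe-sets 1 gene, 691 several and 1555 none. A gene was represented by its brightest probe-set over the 10 arrays among those of 1 gene. Genes named are 4 markers, the 15 with the largest difference each way among called genes without overlap, up to 5 called each way and up to 3 at a similar level from each of 39 lists, all members of the ligand-receptor and relative pairs, and the 10 signalling genes with intervals closest to 0. The members and lists were chosen with earlier results of these data known. Promoter windows came from RefSeq and matched 9887 of 12393 genes. Replicate numbers were not taken as pairs (correlation of deviations between ORS and DP -0.0471). Tables were made in Python 3.11.15 (pandas 2.3.3, numpy 2.4.6), plots in matplotlib 3.10.9.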

Additional observations from a re-analysis of the deposited data

How the results depend on the processing

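The split of calls between ORS and DP and the number of genes at a similar level both depended on the processing. Median rescaling of the arrays gave 3165 probe-sets higher in ORS and 1893 higher in DP. Of the 2924 probe-sets higher in DP, 1486 had both DP arrays under a signal of 200, and a filter at 200 left 1595 higher in DP when applied over the 5 populations and 1326 when applied over ORS and DP. Asking for at least 2-fold as well left 963 higher in ORS and 1207 higher in DP. Leaving out 1 array at a time gave 1243 to 2506 probe-sets higher in ORS and 1668 to 3150 higher in DP, and without an array the lone replicate was assumed to vary like the other populations. The replicate block gave 2286 and 3251, and the chip lot block 2062 and 2933. Within chip lot A, without a test, differences of 2-fold or more numbered 1240 toward ORS and 1275 toward DP, and within lot B 980 and 1430, against 996 and 1234 over both lots. The signalling genes at a similar level numbered 18 with an interval within 1.5-fold, 67 with a signal of 100 on all 4 arrays and 10 with a signal of 500. Dst changed direction by probe-set, at 4.47 and 3.70 on 2 others. Of 243 named genes that were called, none changed direction at its own probe-set under any setting, and 49 lost the call under at least 1 of 21 settings. The largest number, 34, was lost without DP replicate 2, and 2 were lost under the replicate block. The cause of these losses was not tested. Low signals limit what can be seen, since 173 of 363 signalling genes stayed under 200 on all 4 arrays.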

Other observations

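Of 18 measured matrix proteases and inhibitors, 1 was higher in ORS and 7 were higher in DP (5.56% and 38.9%, against 10.3% and 14.8% of all genes), around a median difference of -0.48. The 7 fell to 3 after median rescaling and to 5 after quantile normalization, and 4 of the 7 averaged higher in DF and 2 in Mc than on both DP arrays. Reck, a membrane-bound inhibitor of metalloproteinases, read 37.4 and 25.5 in ORS, against 552 and 727 in DP (8.42-fold higher in DP, limma adjusted p = 1.18e-04). Adam12, a metalloproteinase of mesenchyme, was 2.93-fold higher in DP, with an adjusted p of 0.0303 that reached 0.167 without DP replicate 2, a call lost in 9 of 20 alternatives, and it averaged 406 in Mc and 456 in DF, above both DP arrays. Timp3, an inhibitor held in the matrix, ran the other way at 3010.0 and 3313 in ORS, against 1721 and 1509.7 in DP (1.93-fold higher in ORS, adjusted p = 0.00197).

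Of 12 measured genes known from pericytes and smooth muscle, 6 were higher in DP and 2 were higher in ORS (50% and 16.7%, against 14.8% and 10.3% of all genes). Rgs5, a pericyte marker, read 32.2 and 39.7 in ORS, against 934 and 1983 in DP and 6149 on average in DF (16.5-fold higher in DP). Mylk, the myosin light chain kinase, was 8.83-fold higher in DP, whereas Tagln, a smooth muscle protein, read 1293 and 1666 in ORS, against 234 and 334 in DP (4.59-fold higher in ORS), and Cspg4 was 2.77-fold higher in ORS. Acta2, smooth muscle actin, did not pass, with a difference of 0.15. All 6 genes of this list that were higher in DP averaged higher still in DF. Of 9 measured Schwann cell and glial genes, 5 were higher in DP and 1 was higher in ORS (55.6% and 11.1%). Of the 5 higher in DP, 3 averaged above both DP arrays in DF and 1 did so in Mc. Sox10, which melanocytes also express, read 10.2 and 12.6 in ORS, against 537 and 518 in DP and 1865 in Mc. Mbp read 2.6 and 22.8 in ORS, against 169.6 and 443 in DP and 23 in Mc. The part of other cell types in these values was not tested.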
